A study of Mus musculus with 19 samples.

Results

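The cytosolic ribosomal protein genes were described by ribosome profiling and RNA-seq in acute hippocampal slices of Fmr1 KO mice and wild-type (WT) littermates. Members were the genes whose symbol begins with Rpl or Rps and a digit, with Rpsa and the P-stalk genes Rplp0, Rplp1 and Rplp2. Of 92 rows with such symbols, 10 rows of the S6 kinase family, 1 row of the binding protein Rps19bp1 and 1 pseudogene row were left out. This left 80 members among 14459 genes, 48 of the large and 32 of the small ribosomal subunit. The choice used symbols and no measured value, although earlier results of these data were known when it was made.

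The mice were males of the C57BL/6 strain, 28 to 35 days old, and the Fmr1 KO line had been backcrossed to that background for over 10 generations. Fmr1 is X-linked, and the KO mice lack it in all cells. Each replicate pooled 8 to 10 slices of 400 µm from 6 to 8 mice of a genotype, so the spread between replicates is between pools and not between mice. All slices, KO and WT, rested at 30 °C for 3 to 4 h and then received cycloheximide at 100 µg/ml, which arrests elongating ribosomes. The protocol describes cutting off CA3 to enrich CA1, whereas the source is named as hippocampal-cortical slices. Ribosome-protected mRNA fragments (footprints, RPF) were taken from the monosome peak, and cytoplasmic RNA came from the same lysates. There were 3 KO and 4 WT libraries of each assay, and every value below has n = 3 for KO and n = 4 for WT.

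The cytosolic ribosome makes the proteins encoded in the nucleus. Its small subunit reads the mRNA, and its large subunit joins amino acids and holds the exit tunnel of the growing chain. Most ribosomal protein mRNAs begin with a C followed by a run of C and U, the terminal oligopyrimidine (TOP) tract, through which the mTORC1 kinase pathway and the RNA-binding protein Larp1 control their translation as a group. FMRP, the product of Fmr1, is an RNA-binding protein that associates with ribosomes in neurons, and its loss causes fragile X syndrome.

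Annotated transcript starts of members are shown because the TOP tract lies there, and because several of these genes carry the results below. The windows are RefSeq sequences of GRCm38.p6, 15 bases before to 15 bases after the annotated start, on the strand of the gene. Capitals mark the longest run of C and T that begins with C within 10 bases of the start and has at least 5 bases.
Rpl38: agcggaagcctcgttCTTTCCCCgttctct
Rpl39: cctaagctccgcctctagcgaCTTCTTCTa
Rps6: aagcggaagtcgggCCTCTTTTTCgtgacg
Rps27: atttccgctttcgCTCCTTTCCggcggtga
Rpl14: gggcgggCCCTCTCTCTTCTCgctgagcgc
Rpl10: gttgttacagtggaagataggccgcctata
Rps4x: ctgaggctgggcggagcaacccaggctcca
Rpl5: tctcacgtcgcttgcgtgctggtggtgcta
These lie at chr11:114668565-114668594 (plus strand) for Rpl38, chrX:37085208-37085237 (minus) for Rpl39, chr4:86857353-86857382 (minus) for Rps6, chr3:90213634-90213663 (minus) for Rps27, chr9:120571502-120571531 (plus) for Rpl14, chrX:74270801-74270830 (plus) for Rpl10, chrX:102189377-102189406 (minus) for Rps4x and chr5:107900513-107900542 (plus) for Rpl5. The run at Rpl38 began at the annotated start itself, and the run at Rpl14, of 14 bases, was the longest of these 8. The other runs began at -8 (Rpl14), -2 (Rps27), -1 (Rps6) and 6 (Rpl39) bases from the annotated start, with negative values before it. Part of the Rpl14 run thus lies before the annotated start, and the annotated mRNA of Rpl39 does not begin with its run. The windows of Rpl10, Rps4x and Rpl5 held no such run, which says only that these letters are not near the annotated start. For Rpl38 and Rpl5 the annotated start used lies downstream of the start of the gene (chr11:114667818 and chr5:107900508). Their windows do not cover the start of the gene.

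A promoter sequence was given for 60 of the 80 members. Of these 60 members, 36 (60.0%) held a run of at least 5 bases on the sense strand, against 34.4% of the 27025 genes with a sequence. With a run of at least 7 bases the numbers were 29 of 60 members (48.3%), against 14.1% of the genes. On the opposite strand, whose letters are not those of the mRNA, the 5-base search found 14 of 60 members (23.3%), against 38.7% of the genes. The search also counted runs that end before the annotated start. The sense-strand shares are therefore not shares of mRNAs that carry or begin with such a run. Beyond this sequence, the members were spread over 19 chromosomes, with 14 on chromosome 7 and 4 (Rpl10, Rps4x, Rpl36a and Rpl39) on the X chromosome, where Fmr1 also lies.

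Depth and sample identity were as follows. RNA libraries held 6.36 to 9.96 M estimated counts in KO and 4.97 to 6.76 M in WT, and RPF libraries 16.1 to 19.2 M in KO and 15.6 to 22.7 M in WT. Members averaged at least 145 counts in KO RNA, 110.4 in WT RNA, 352 in KO RPF and 341 in WT RPF, and all 80 passed the filter on low counts. Footprints of Fmr1 were 4.59 to 5.03 TPM in KO and 42.7 to 46.3 TPM in WT, and its RNA was 3.90 to 5.31 TPM in KO and 16.0 to 19.3 TPM in WT. TPM is an abundance scaled to gene length and to the library. Markers of microglia moved with genotype. All 8 listed genes were called lower in KO footprints (edgeR, adjusted p below 0.05), beside 10.4% of all genes. In RNA 6 of the 8 were lower, beside 2.77% of all genes. Footprint sums of the 8 were 497 to 533 TPM in KO and 599 to 622 TPM in WT. Of 6 genes of fibroblasts and meninges 5 were lower in KO footprints and 2 in RNA. Their footprint sums were 234 to 243 TPM in KO and 298 to 335 TPM in WT. Of the 8 oligodendrocyte markers 4 were lower and 1 was higher in KO footprints. Both red blood cell markers that were measured were lower in KO in each assay. In footprints, 2 of 8 astrocyte markers were lower and 2 higher, and 2 of 8 interneuron markers were lower and 1 higher. Of 8 endothelial and mural markers 3 were lower and 0 higher, and of 6 oligodendrocyte precursor markers 2 were lower and 0 higher. Of 5 choroid plexus and ependyma markers 1 was lower and 1 higher. Pyramidal neuron markers summed to 6676 to 7011 TPM in KO footprints and 6951 to 7099 TPM in WT footprints, which overlapped. In RNA their sums, 4171 to 4438 TPM in KO and 4508 to 4544 TPM in WT, did not overlap, and 1 of the 8 genes passed the test, as lower. In pooled tissue, fewer cells of a type and less RNA per cell cannot be told apart, and the part of these shifts in the results on members was not tested.

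The members were among the most abundant RNAs of the slices but carried few footprints for their RNA. In RNA the members together made up 7.85 to 8.87% of all TPM in KO libraries and 7.98 to 8.78% in WT libraries. In footprints they made up 2.59 to 2.72% in KO and 2.63 to 2.71% in WT, so the genotypes overlapped in both assays. The median member had 1022 TPM of RNA in KO and 999.9 TPM in WT, against 296 TPM of footprints in each genotype. In WT, 78 of 80 members lay above the 90th percentile of all genes by RNA and 72 by footprints.

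Most core proteins are present in equal numbers in a ribosome, as background; the levels of the members' mRNAs spread widely. RNA levels (per length) differed 44.8-fold between the highest and lowest member in KO and 47.3-fold in WT, and footprint levels 19.05-fold in KO and 22.1-fold in WT. The lowest member in both assays was Rpl7l1, a paralog of Rpl7. Without the paralogs Rpl7l1, Rps27l and Rpl36al, Rpl39 had the lowest RNA level (KO 245 TPM, WT 252 TPM), so the RNA range was narrower. In footprints Rpl14, which is not a paralog of this kind, lay close to Rpl7l1. The coefficient of variation across members was 52.5% in KO RNA, 53.2% in WT RNA, 57.3% in KO footprints and 61.9% in WT footprints. The order of members was nearly the same in the genotypes, with a Spearman correlation of KO and WT levels of 0.992 in RNA and 0.996 in footprints across the 80 genes. Between the assays it was weak: the Spearman correlation of WT footprints and WT RNA was 0.23 across members, against 0.89 across all genes. These correlations are across genes, which share libraries and are not replicates.

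The highest RNA levels were those of Rps21, a small-subunit protein, which had 2865 ± 206 TPM in KO and 2982 ± 86.7 TPM in WT (mean ± SD). Rplp1, an acidic protein of the stalk that recruits elongation factors, had 2909.6 ± 356 TPM in KO and 2854 ± 82.4 TPM in WT. Rps14, of the small-subunit platform, followed with 2541 ± 187 TPM in KO and 2611 ± 56.1 TPM in WT. The order of Rps21 and Rplp1 differed between the genotypes, and their libraries overlapped in each.

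The lowest RNA levels were those of paralogs of core members: Rpl7l1, Rps27l and Rpl36al. Rpl7l1, the Rpl7-like protein, had 61.8 to 70.2 TPM of RNA in KO and 60.2 to 66.5 TPM in WT, against 824 to 1005 TPM in KO and 867 to 975 TPM in WT for Rpl7. Rps27l had 127 to 139 TPM of RNA in KO and 121 to 155 TPM in WT, far below Rps27, which is given below. The X-linked Rpl36a and its autosomal paralog Rpl36al showed that RNA order and footprint order need not match. Rpl36a had 288 to 390.0 TPM of RNA in KO and 273 to 350.1 TPM in WT, above Rpl36al with 161 to 198 TPM in KO and 158 to 182 TPM in WT. In footprints Rpl36a had 173 to 204 TPM in KO and 185 to 201 TPM in WT, below Rpl36al with 361 to 388 TPM in KO and 388 to 399.8 TPM in WT. In each assay no library of one gene reached the range of the other, although near-identical coding sequences make the split of reads between them uncertain. Rpl22l1, a paralog that can replace Rpl22 in the ribosome, had 82.1 to 96.1 TPM of footprints in KO and 81.0 to 103 TPM in WT, and Rpl22 had 176 to 195 TPM in KO and 177 to 189 TPM in WT.

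In footprints Rpl38 was the highest member, followed by Rps21 and Rpl39 in each genotype. The lowest was Rpl7l1, with 65.7 ± 2.80 TPM in KO and 62.6 ± 2.77 TPM in WT, then Rpl14, with 67.4 ± 3.32 TPM in KO and 63.5 ± 1.83 TPM in WT, then Rps23, of the decoding centre, with 73.3 ± 4.58 TPM in KO and 71.7 ± 3.59 TPM in WT. The ranges of Rpl7l1 and Rpl14 overlapped in each genotype, so their order is not settled.

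**Figure D1:**
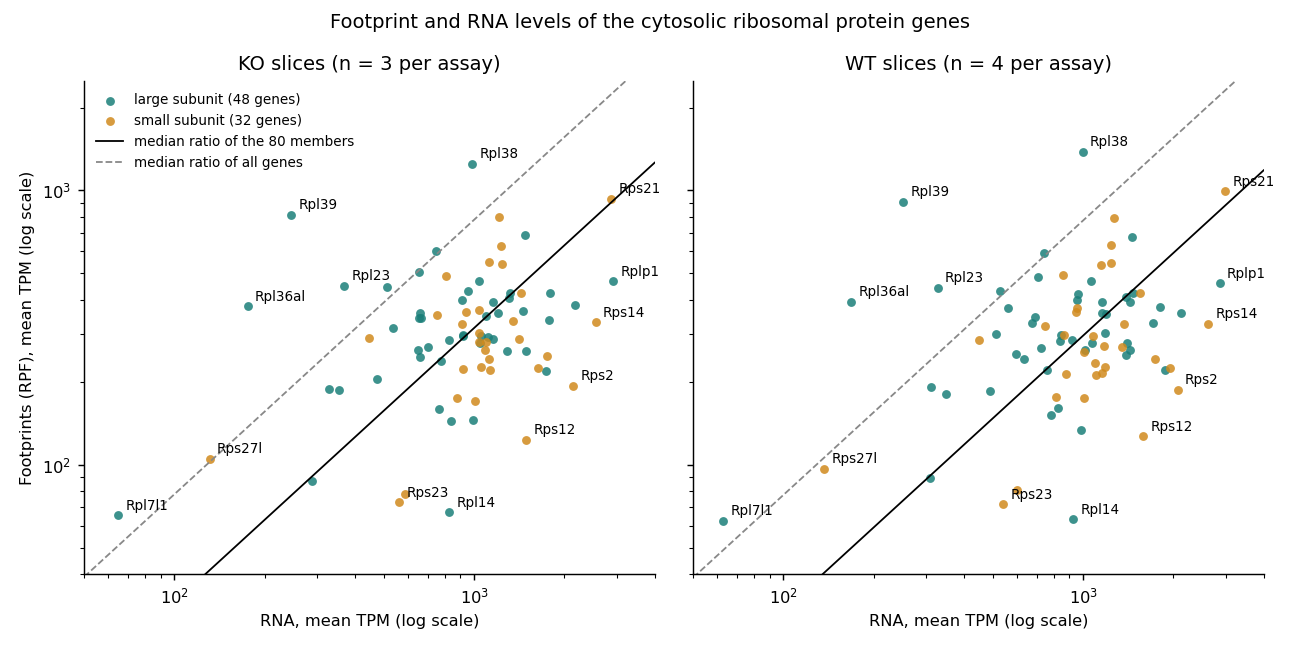
Mean footprint level (vertical, TPM, log scale) against mean RNA level (horizontal, TPM, log scale) of the 80 members in KO slices (left, n = 3 per assay) and WT slices (right, n = 4 per assay), coloured by subunit. The solid line is the median ratio of the members and the dashed line that of all genes; most members lie below the dashed line, with Rpl39, Rpl36al, Rpl38 and Rpl23 above it in each genotype.

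The ratio of footprints to RNA, here mean RPF TPM over mean RNA TPM, was low for most members. Its median was 0.315 in KO and 0.296 in WT for the members, against 0.781 in KO and 0.777 in WT for all genes. Below the all-gene median lay 72 of 80 members in KO and 73 in WT, and the median member stood at percentile 8.59 of all genes in WT. Taken by library pair, the members' median was 0.289 to 0.330 in KO and 0.286 to 0.328 in WT. No library pair of either genotype reached the all-gene medians, which were 0.774 to 0.783 in KO and 0.769 to 0.785 in WT. As the length of a gene was the same in the 2 assays, it cancels in the ratio. The ratio could still vary with length, and its Spearman correlation with length was -0.26 across the 80 members in WT.

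Genes of like length did not share this value. The 6220 other genes with lengths in the range of the members had a median ratio of 0.914 in KO and 0.900 in WT. The 77 genes of the mitochondrial ribosome, which is built from a separate set of proteins, had a median of 0.944 in KO and 0.940 in WT. Of the 2 subunits, large-subunit members had a median of 0.330 in KO and 0.338 in WT, and small-subunit members 0.251 in KO and 0.241 in WT.

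Single members departed from the group. Rpl39, a very small protein at the exit tunnel, had the highest ratio, 3.32 in KO (2.62 to 3.87 by library pair) and 3.61 in WT (2.97 to 4.46). It is the shortest member (96 nucleotides) and had the fewest RNA counts, on average 145 in KO and 110 in WT. The next highest ratios were those of Rpl36al, at 2.15 in KO and 2.33 in WT, and Rpl38, at 1.27 in KO and 1.39 in WT. Rpl23, a protein of the subunit interface, then had 1.22 in KO and 1.35 in WT. The lowest ratios were those of Rpl14, at 0.0817 in KO (0.0775 to 0.0859) and 0.0687 in WT (0.0665 to 0.0725), Rps12, at 0.0826 in KO and 0.0800 in WT, and Rps2, a protein of the mRNA entry channel, at 0.0906 in KO and 0.0907 in WT. The ranges of Rpl14 did not overlap between the genotypes, but the test of that difference (TE, described below) did not pass (0.24 ± 0.09 on the log2 scale, adjusted p = 0.31, edgeR). Ribosomal protein genes have many processed pseudogenes, and reads shared with those copies make the levels and ratios of members uncertain. The pseudogene row that was left out, Rpl31-ps12, held 262 TPM of RNA in KO and 280.1 TPM in WT, with 23.6 TPM of footprints in KO and 24.5 TPM in WT, a ratio of 0.0874 in WT.

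The comparison of genotypes asked whether footprints on these mRNAs change without FMRP, relative to other mRNAs. Scaling sets the typical gene near 0, so a change shared by all genes cannot be seen. Of the 80 members, 4 rose in KO footprints, among them Rpl10, Rps4x and Rpl5, 2 fell (Rpl38 and Rpl39), and 74 did not pass an adjusted p of 0.05 (edgeR). Among members 5.00% rose and 2.50% fell, smaller shares than among all 14438 genes tested, of which 8.15% rose and 10.4% fell. The changes of members were small: their median log2 fold change (KO over WT) was 0.016, against -0.00015 for all genes, and the median size of change without regard to sign was 0.039 for members and 0.087 for all genes. The largest fall was -10.8% (Rpl39), and the 95% intervals of the 74 others lay between -0.23 and 0.23 on the log2 scale. The calls depended on single libraries: 10 members rose and 0 fell without KO replicate 1, 3 rose and 0 fell without KO replicate 2, 0 rose and 2 fell without KO replicate 3, and none passed without WT replicate 4.

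Rps4x, an X-linked protein of the small-subunit body, had 255, 263 and 267 TPM of footprints in KO, against 241, 229.7, 242 and 231 TPM in WT. Every KO library lay above every WT library, and the log2 fold change was 0.14 ± 0.04 (SE, adjusted p = 0.017, edgeR). RNA of Rps4x was 1089.7 ± 93.3 TPM in KO and 1096 ± 63.6 TPM in WT. Calls of Rps4x and Rpl10 were lost without KO replicate 3 (adjusted p = 0.088 and 0.095) and without WT replicate 4.

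Rpl10, an X-linked protein that joins the large subunit late and completes it for joining with the small one, had 411, 423 and 430.2 TPM of footprints in KO, against 391.7, 374, 380.2 and 358 TPM in WT. All KO libraries were higher than all WT libraries, and the log2 fold change was 0.16 ± 0.04 (adjusted p = 0.017, edgeR). Rpl5, which with Rpl11 and the 5S rRNA forms a particle that can also bind the p53 regulator Mdm2, had 197, 209 and 208 TPM in KO, against 191, 182, 189.5 and 180.1 TPM in WT. Its groups did not overlap, and the log2 fold change was 0.13 ± 0.04 (adjusted p = 0.035, edgeR). Its partner Rpl11 had 249, 264 and 275 TPM in KO, against 273, 249.8, 251 and 240 TPM in WT, with overlapping groups and a log2 fold change of 0.044 ± 0.051 (adjusted p = 0.65, edgeR). The call of Rpl5 was lost without any 1 of 5 libraries (KO replicates 2 and 3, WT replicates 2, 3 and 4).

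The 2 members that fell are proteins of the large subunit with very short coding sequences. Rpl38, which in mice is required for normal patterning of the axial skeleton, had 1202, 1266 and 1286 TPM of footprints in KO, against 1435, 1382, 1322 and 1397 TPM in WT. All KO libraries were below all WT libraries, with a log2 fold change of -0.15 ± 0.04 (adjusted p = 0.029, edgeR). Rpl39 had 794, 796 and 856 TPM in KO, against 985, 830.4, 907 and 908 TPM in WT, so KO replicate 3 lay above WT replicate 2. Its log2 fold change was -0.16 ± 0.05 with an adjusted p of 0.0498 (edgeR), and 11 of 18 alternative settings lost the call. The call of Rpl38 was lost without either of KO replicates 1 and 2 or any of WT replicates 1, 2 and 4.

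**Figure D2:**
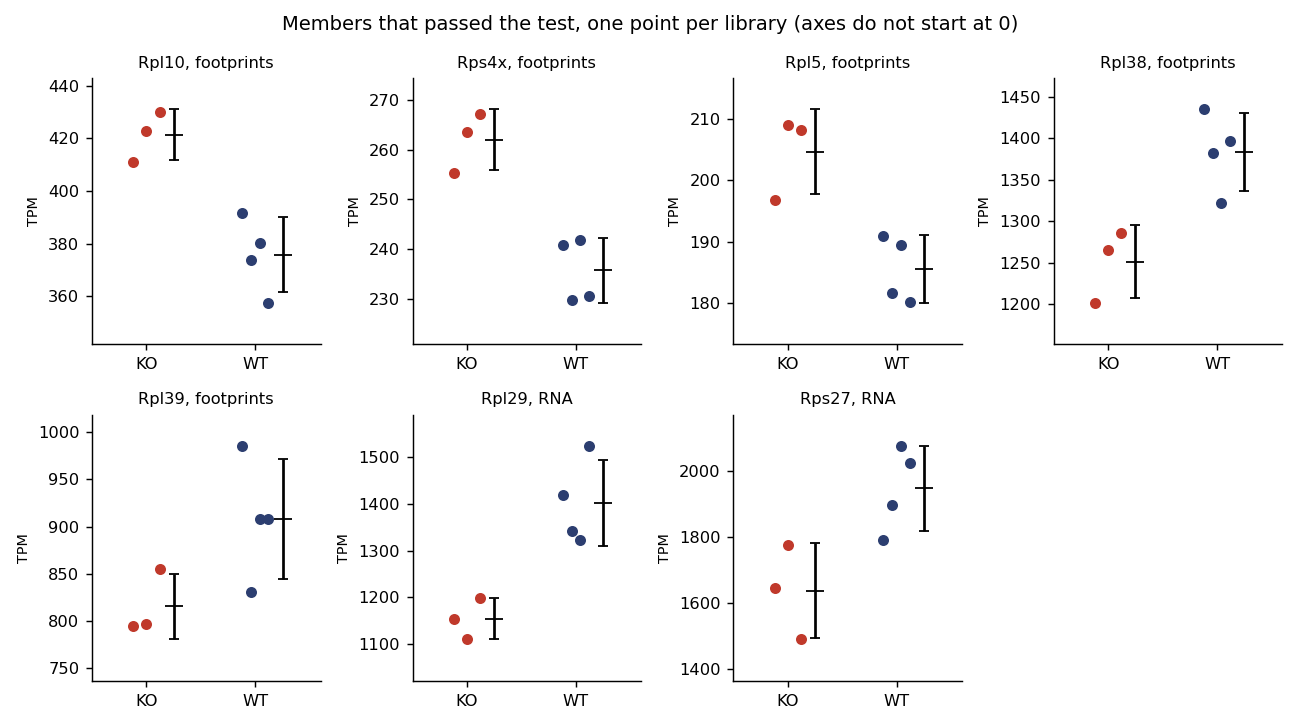
Level in TPM (vertical; axes do not start at 0) of Rpl10, Rps4x, Rpl5, Rpl38 and Rpl39, which passed the test in footprints, and of Rpl29 and Rps27, which passed it in RNA, with 1 point per library, KO left of WT, and the mean ± SD beside the points. KO and WT libraries do not overlap in 6 of the 7 panels; in Rpl39 one KO library lies above the lowest WT library.

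Without regard to the test, 14 members had every KO footprint library above every WT library, among them Rpl4, Rpl5, Rpl6, Rpl8, Rpl9, Rpl10, Rpl24, Rpl28, Rplp0, Rps3, Rps3a1, Rps4x and Rps6. Rpl38 was the 1 member with every KO library below. Over all genes the shares were 15.1% above and 15.6% below. Of the 14 members above, 10 did not pass the test, and the log2 fold changes of those named were 0.038 to 0.16.

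Members just short of the threshold included Rps6, the small-subunit protein that S6 kinase phosphorylates. It had 346, 345 and 365 TPM of footprints in KO, against 339.9, 310.3, 320.2 and 312 TPM in WT. Its groups did not overlap, and the log2 fold change was 0.13 ± 0.04 (adjusted p = 0.051, edgeR; below 0.05 in 8 of 18 alternative settings). Rplp0, the base of the P-stalk, had 143, 148 and 145 TPM in KO, against 132, 132, 140.1 and 131 TPM in WT, with a log2 fold change of 0.11 ± 0.04 (adjusted p = 0.055). Of the stalk proteins bound to it, Rplp1 had 444 to 479 TPM in KO and 445 to 486 TPM in WT, and Rplp2 had 289 to 305 TPM in KO and 292 to 306 TPM in WT, with log2 fold changes of 0.013 ± 0.047 and -0.013 ± 0.039. The difference between these stalk genes was not tested. The other large changes that did not pass were those of Rps9, at 0.12 ± 0.05 (adjusted p = 0.098), and Rpl37a, at -0.12 ± 0.05 (adjusted p = 0.12).

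Rps27a, which is made as a fusion with ubiquitin, had 530.2 to 547 TPM of footprints in KO and 518 to 568 TPM in WT, with a log2 fold change of -0.024 ± 0.036. Of the paralogs, Rps27l had the largest value, 102 to 112 TPM in KO and 92.3 to 103 TPM in WT (log2 fold change 0.11 ± 0.06, adjusted p = 0.20), beside -0.0079 ± 0.074 for Rps27. By subunit, 2 of 48 large-subunit members rose and 2 fell (median log2 fold change 0.014), and 2 of 32 small-subunit members rose and none fell (median 0.021).

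The footprint change of a member went with its length. The length behind each TPM, read from the ratio of counts to TPM, was 96 to 1200 nucleotides (median 397.5) for members and had a median of 1347 over all genes, and all 80 members were shorter than that median. Of the 27 shortest members (96 to 339 nucleotides), 21 had a negative footprint log2 fold change and 6 a positive one, with a median of -0.023 and 2 calls, both lower. Of the 26 members of 348 to 507 nucleotides, 16 were positive (median 0.016). Of the 27 longest (519 to 1200 nucleotides), 24 were positive and 3 negative, with a median of 0.070 and 4 calls, all higher. Across the 80 members the Spearman correlation of length and log2 fold change was 0.62, against 0.077 across 6193 other genes in the same range of lengths. Other genes in these 3 ranges of length had medians of -0.017, 0.0052 and 0.019. Of these other genes, 2.71% rose and 6.54% fell in the shortest range. The shares were 4.66% and 7.28% in the middle range, and 9.79% and 7.06% in the longest.

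The relation was not equally strong in every library. The median deviation from WT of the longest members minus that of the shortest was 0.14, 0.098 and 0.062 on the log2 scale in KO replicates 1, 2 and 3. In WT libraries, each set against the other 3, it was -0.0020, -0.050, 0.062 and -0.018 in replicates 1 to 4. Thus KO replicates 1 and 2 lay above all WT libraries, and KO replicate 3 lay at the level of WT replicate 3. In RNA the correlation with length was 0.062 across members. The length relation was found in these data and was not tested.

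**Figure D3:**
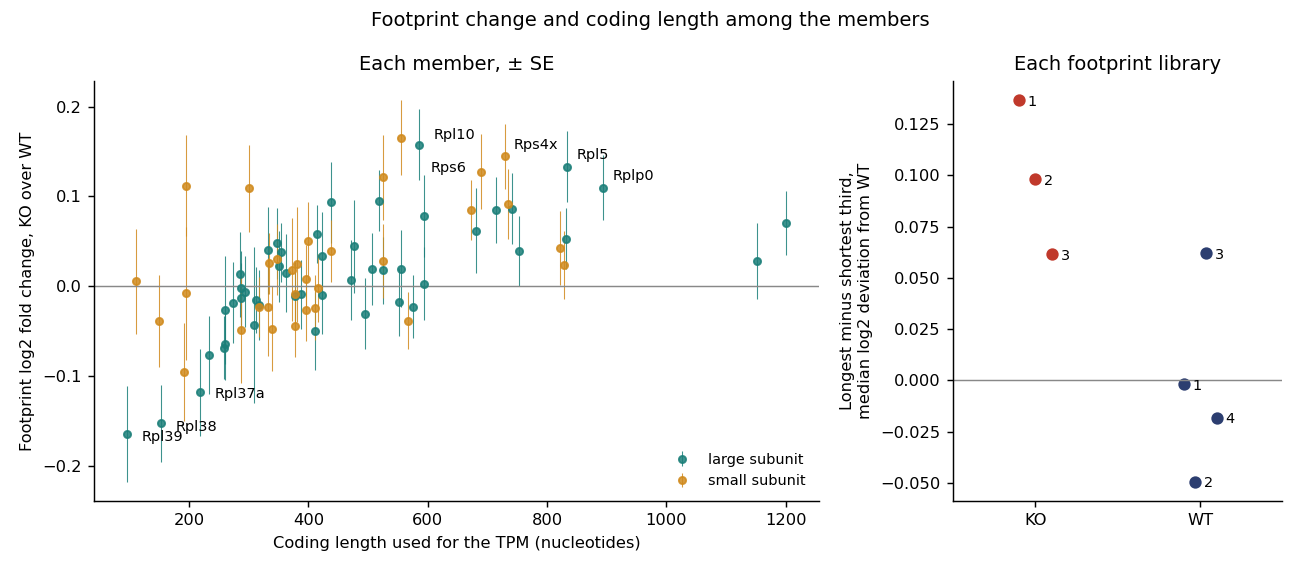
Left, footprint log2 fold change (KO over WT, ± SE) of each member against the length behind its TPM, in nucleotides, coloured by subunit. The axis names it coding length, but it may be shorter than the full coding sequence. Right, for each footprint library (number: replicate), the median deviation from WT of the 27 longest members minus that of the 27 shortest; KO replicates 1 and 2 lie above all WT libraries and KO replicate 3 at the level of WT replicate 3.

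In RNA 2 members fell in KO, Rpl29 and Rps27, and none rose. Among members 2.50% fell and 0% rose, against 2.77% that fell and 2.11% that rose among all 13877 genes tested. The median log2 fold change was -0.015 for members and -0.0049 for all genes. At an unadjusted p under 0.05, 1 member, Rpl36, was higher in edgeR, against 9.66% of all genes, and DESeq2 and limma called none higher after adjustment. No member passed in both assays, and the difference between the assays is tested below.

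Rpl29, a large-subunit protein that binds heparin and is not essential in mice, had 1154, 1111 and 1199 TPM of RNA in KO, against 1418, 1341, 1322 and 1524 TPM in WT. No KO library reached the lowest WT library, and the log2 fold change was -0.28 ± 0.06 (adjusted p = 0.013, edgeR). Its footprints were 286 ± 17.2 TPM in KO and 278 ± 14.4 TPM in WT. The RNA call was lost without KO replicate 2 (adjusted p = 0.055) and kept in the other 17 alternative settings.

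Rps27, a zinc-finger protein of the small subunit, had 1646, 1776 and 1489 TPM of RNA in KO, against 1791, 1898, 2075 and 2024 TPM in WT. All KO libraries were lower than all WT libraries, although KO replicate 2 came close to WT replicate 1. The log2 fold change was -0.26 ± 0.07 (adjusted p = 0.041, edgeR), and 10 of 18 alternative settings lost the call. Footprints of Rps27 were 226 ± 25.9 TPM in KO and 226 ± 10.6 TPM in WT.

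Besides these genes, Rpl34 and Rps10 had every KO RNA library below every WT library, so that 4 members did, against 10.0% of all genes. Rpl3, of the peptidyl transferase centre, was the 1 member with every KO RNA library above (9.03% of all genes). None of these 3 passed the test, with log2 fold changes of -0.15 (Rpl34), -0.092 (Rps10) and 0.061 (Rpl3). Of the other large changes, Rpl36 RNA had 559, 701 and 722 TPM in KO, against 523, 636, 542 and 539 TPM in WT. Its groups overlapped, with a log2 fold change of 0.25 ± 0.09 (adjusted p = 0.14, edgeR). Without KO replicate 1, the lowest of the KO libraries, it was 0.36 and passed (adjusted p = 0.029). Rpl23 had a log2 fold change of 0.17 ± 0.11 (adjusted p = 0.41) and Rpl14 of -0.17 ± 0.07 (adjusted p = 0.16). Member RNA varied between libraries of 1 genotype as a block: the median deviation of members from their mean was 0.10 in KO replicate 2 and 0.070 in WT replicate 2, against -0.082 in KO replicate 1 and -0.067 in WT replicate 1.

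**Figure D4:**
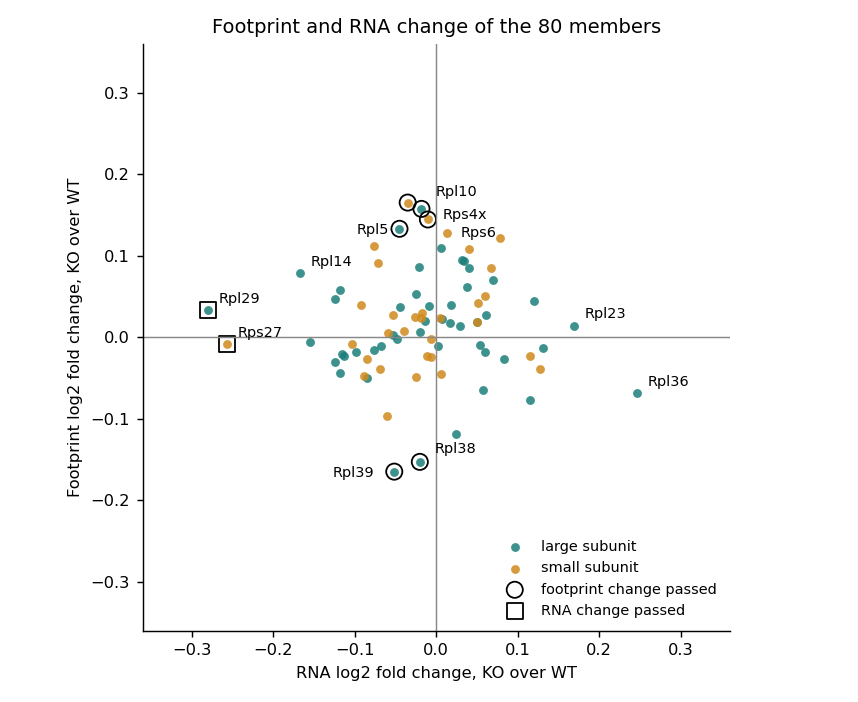
Footprint log2 fold change (vertical, KO over WT) against RNA log2 fold change (horizontal, KO over WT) of the 80 members, coloured by subunit; circles mark the 6 members that passed the test in footprints and squares the 2 that passed it in RNA. The members called in footprints lie near 0 in RNA, and those called in RNA lie near 0 in footprints.

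Whether footprints changed differently from RNA (translational efficiency, TE) was asked in a single model of the 14 libraries, in which TE is the term for genotype by assay. No member passed in either direction in edgeR, and of 14435 genes 0.0139% rose and 0.0208% fell. DESeq2 called 1 member, Rpl29, as higher, and limma called none. At an unadjusted p under 0.05 there were 8 members in edgeR, 7 higher and 1 lower, against 10.8% of all genes. The median TE log2 fold change was 0.036 for members and -0.011 for all genes, and 51 members were positive and 29 negative.

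The largest TE values were those of Rpl36, Rpl29 and Rps27, of which the last pair had passed in RNA. Rpl29 had a TE log2 fold change of 0.31 ± 0.08 (adjusted p = 0.094, edgeR), which passed in DESeq2, without KO replicate 3 and with a filter at a mean of 50 counts. Rpl36 had -0.32 ± 0.10 (adjusted p = 0.19) and Rps27 had 0.24 ± 0.11 (adjusted p = 0.40), with wide 95% intervals of -0.54 to -0.11 and 0.02 to 0.46, not adjusted for the number of genes. For members named above whose footprints rose, the values were 0.17 ± 0.07 (Rpl10), 0.15 ± 0.08 (Rps4x) and 0.17 ± 0.10 (Rpl5), none of which passed.

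Genes that work with the members moved in part. Of the ribosomal protein genes with other symbols, Gnb2l1 (the scaffold protein Rack1) rose in KO footprints, with 177 ± 1.99 TPM against 165 ± 2.37 TPM in WT (log2 fold change 0.094 ± 0.031, adjusted p = 0.0499, edgeR; lost in 13 of 18 alternative settings). Fau, made as a fusion with a ubiquitin-like protein, had a log2 fold change of 0.0031 ± 0.036.

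Of 15 other genes known for TOP mRNAs, 5 rose in KO footprints and none fell (median log2 fold change 0.066), beside 8.15% and 10.4% of all genes. Eif4b, an initiation factor that helps the Eif4a helicase, had 70.8 ± 0.991 TPM in KO and 59.7 ± 2.38 TPM in WT (log2 fold change 0.24 ± 0.04, adjusted p = 0.0021, edgeR). Pabpc1, which binds poly(A) tails, had 55.7 ± 1.37 TPM in KO and 47.4 ± 2.06 TPM in WT (0.23 ± 0.04, adjusted p = 0.0046). Hnrnpa1, a splicing regulator, rose by 0.21 ± 0.04 on the log2 scale (adjusted p = 0.0050). The elongation factor Eef1a1 and Tpt1 also rose. In RNA 1 of the 15 rose, Eif4b (0.23 ± 0.06, adjusted p = 0.036, edgeR; lost in 9 of 18 alternative settings), beside 2.11% of all genes that rose.

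Of 18 genes of mTORC1 and TOP regulation, 5 rose in KO footprints and 1 fell (median log2 fold change 0.099), beside 8.15% and 10.4% of all genes. Pdcd4, an inhibitor of Eif4a, had 144 ± 0.902 TPM in KO and 127 ± 3.66 TPM in WT (0.18 ± 0.03, adjusted p = 0.0041, edgeR). Akt1s1, an inhibitory subunit of mTORC1, rose by 0.24 ± 0.05 (adjusted p = 0.0065) and Ddit4, which restrains mTORC1 under stress, by 0.18 ± 0.05 (adjusted p = 0.019). Mlst8, a subunit of mTORC1, and Eif4ebp1, an inhibitor of Eif4e, were the others that rose. Mtor, the kinase itself, was the gene that fell (-0.15 ± 0.05, adjusted p = 0.042), and Larp1 had 0.078 ± 0.048.

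Of 86 genes of ribosome biogenesis, 12 rose in KO footprints and 1, Mdn1, fell (median log2 fold change 0.073), beside 8.15% and 10.4% of all genes. Ubtf, which activates transcription of rRNA genes, had 51.8 ± 2.09 TPM in KO and 45.6 ± 1.17 TPM in WT (0.17 ± 0.04, adjusted p = 0.0067, edgeR). Tsr1 and Nsa2, which act in maturation of the small and the large subunit, rose by 0.20 ± 0.04 (adjusted p = 0.0081) and 0.17 ± 0.04 (adjusted p = 0.014). In RNA 3 of the 86 rose and none fell, beside 2.11% and 2.77% of all genes: Gnl3l (0.28 ± 0.05, adjusted p = 0.0096), Gnl2 (0.42 ± 0.08, adjusted p = 0.011) and Surf6 (0.60 ± 0.11, adjusted p = 0.015). In WT the median ratio of footprints to RNA was 0.296 for the members, against 0.654 for the TOP list, 0.782 for mTORC1 and TOP regulation and 1.31 for ribosome biogenesis.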

How the data were processed

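Ribosome footprints and cytoplasmic RNA were measured in slices of Fmr1 KO and WT mice. Per the submitters' processing notes, the tools were cutadapt 1.7.1, Trimmomatic 0.32, Bowtie2 2.1.0, TopHat2 2.0.9, SAMtools 0.0.19, bedtools and RSEM 1.2.11, with the build mm10. The deposited tables hold estimated counts and TPM per gene, made by the authors. The labels list 19 samples, of which 14 had a column, matched by title; the other 5 are not analysed here.

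The ratio of counts to TPM gave 1 length per gene, the same in every library. Lengths were whole multiples of 3 nucleotides (within 0.1) for 85.7% of genes, as those of coding sequences are. Taking a fixed multiple of 3 nucleotides off every coding sequence would look the same. The lengths given here may therefore be shorter than the full coding sequences. TPM has a floor near 1 (lowest value per library 0.88 to 1.00). Over genes with mean counts of 20 to 50, the median variance over the mean was 0.380 (KO) and 0.406 (WT) in RNA and 0.158 (KO) and 0.174 (WT) in footprints, below the Poisson value, as an adjustment before deposit could leave; the labels do not mention one. Adjusted p-values may therefore be too small, and counting intervals are not given.

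Counts were rounded and tested on all genes with edgeR 4.0.16 (R 4.3.3; filterByExpr with a minimum count of 10, TMM, robust quasi-likelihood test), and a call is a Benjamini-Hochberg adjusted p below 0.05. TE was the interaction of assay and genotype, with the 14 libraries taken as independent. SE was derived from the F statistic as |log2 fold change| / √F, and 95% intervals use the t distribution with the degrees of freedom of each test. The scripts were run on simulated counts, which vary more than Poisson counts do. As the low counts of these data vary less, that run cannot show whether the adjusted p-values hold here. Alternatives used DESeq2 1.42.0, limma 3.58.1 on log2(TPM + 1) or log2(TPM + 0.1), other scalings and filters, a replicate block and leaving out each library. Over all genes, deviations of KO and WT libraries with the same replicate number correlated at -0.11, 0.04 and -0.47 in footprints and -0.08, -0.06 and -0.34 in RNA, so the numbers were not taken to pair samples. The median RNA deviation of members did share its sign in replicates 1 (-0.082 in KO, -0.067 in WT) and 2 (0.10 in KO, 0.070 in WT). It did not in replicate 3 (-0.032 in KO, 0.021 in WT). Pairing of the members alone was not tested. Libraries with different numbers correlated at -0.36 to 0.42 in footprints and -0.40 to 0.35 in RNA. The main test had no term for such shared deviations, and their cause was not tested.

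Members and lists were chosen with earlier results of these data known. Named genes were Fmr1, members that passed the test, the 3 highest and 3 lowest by WT level and by ratio, the 3 largest changes not called per assay, the stalk genes, Rps27a, Rpl5, Rpl11, Rps6, Rpl10, Rps4x, paralogs with their partners, and up to 3 genes with the smallest p of each other list. Rpl3, Rpl34, Rps10, the members of the list of 14 that were not called and the further genes of the lists (Tpt1, Eef1a1, Mlst8, Eif4ebp1, Mtor, Larp1, Mdn1) were named after their values were seen. Some genes are not reported here. Symbols of all 80 members matched RefSeq (GRCm38.p6).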

Additional observations from a re-analysis of the deposited data

Results flagged for a closer look

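Of 64 sets of 4 WT libraries examined (30 named members and 2 summaries in each assay), 2 had 1 library that stood far from the other 3 relative to their range; chance alone flags about 1 in 20 such sets. Rpl36 RNA was 636 TPM in WT replicate 2, against 523 to 542 TPM in the other WT libraries. Rplp0 RNA was 1054 TPM in WT replicate 2, against 954 to 971 TPM in the others. Member RNA as a block was also highest among WT libraries in WT replicate 2 (median deviation 0.070) and lowest among KO libraries in KO replicate 1 (-0.082). Without WT replicate 2 the RNA log2 fold change of Rpl36 was 0.32 (adjusted p = 0.052, edgeR), not called as before; without KO replicate 1, at 559 TPM beside 701 and 722 TPM in the other KO libraries, it was 0.36 and called (adjusted p = 0.029, edgeR). No cause was tested.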

How the results depend on the processing

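Calls on members were few and depended on single libraries. In footprints 6 members were called, 0 with a replicate block, 10 with a length trend removed per library (limma) and 0 to 10 when 1 library was left out: 10 without KO replicate 1, 3 without KO replicate 2, 2 without KO replicate 3 and 0 without WT replicate 4. Directions turned over with these libraries: 4 rose and 2 fell with all of them, 10 rose and 0 fell without KO replicate 1, and 0 rose and 2 fell without KO replicate 3. With replicates 1 and 2 alone, a choice made after seeing the data, 1 member was called, lower. Replicates 3 and 4 alone leave 1 KO library, whose spread cannot be estimated, so only an effect size is given for them. The KO and WT libraries share only replicate numbers, so the block is no evidence of pairing. In RNA 2 members were called, and leaving out 1 library gave 1 to 2. The number was 1 with TMM factors computed without the members, limma on log2(TPM + 1), limma on log2(TPM + 0.1) and the replicate block. It was also 1 with replicates 1 and 2 against the others as a covariate, and with replicates 1 and 2 alone. In TE 0 were called, 1 with DESeq2, 1 with a mean of at least 50 counts, and 0 to 1 when 1 library was left out. The cause of these shifts was not tested. The footprint median of members, 0.016, was 0.064 with replicates 3 and 4 alone and -0.0062 to 0.052 when 1 library was left out. The longest members exceeded the shortest by 0.093 in median footprint change, 0.073 to 0.12 when 1 library was left out and 0.065 with the length trend removed. The WT ratio of footprints to RNA, 0.296, was 0.364 from CPM, where the all-gene median was 0.957. Of the named genes, Fau footprints were -0.027 to 0.036 when 1 library was left out, and Rps27 in TE was -0.037 with replicates 1 and 2 alone; these 2 changed sign and were not called. Of the values of single genes and of the length relation under alternatives, 522 stayed the same, 94 lost a call, 19 gained one and 3 changed sign. For a gene, the same means the same direction and side of the threshold. For the length relation, which has no call, it means within 1 SD between WT footprint libraries. With 3 KO and 4 WT libraries, the median SE of a member was 0.040 in footprints and 0.067 in RNA on the log2 scale, which limits what could be called. The Fmr1 decrease held in every setting run.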
